A study of Phelipanche ramosa with 8 samples.

Results

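The contigs described here are those of the *Phelipanche ramosa* transcriptome whose antisense probe was well above background in every sample while their sense probe was so in none. They were selected on the detection flags of the scanner software. The antisense probe had to be well above background on at least 1 of its spots in both channels of all 4 arrays, and the sense probe on no spot of any channel or array. A channel is said below to have sense or antisense signal where this flag was set on at least 1 spot. Of the 52543 contigs on the array, 271 (0.516%) met this rule, and they are called antisense-only contigs below. As detection chose them, their presence on 1 strand and their levels are a description and no test was made of them.

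*P. ramosa*, the branched broomrape, is a root parasite without photosynthesis that lives on the roots of its host. After germination its radicle turns into a prehaustorium, the organ that attaches to the host root, and this step is triggered by compounds that the host root exudes. Many loci of plants are transcribed from both strands, and RNA complementary to a coding transcript is called a natural antisense transcript. Such RNA is known to act on the transcription, the stability or the silencing of its partner in some cases, and in most it has no known role. On this array, which was designed on a *de novo* assembly, sense is the strand predicted to be coding and antisense its complement. The prediction was not tested here, and a contig predicted on the wrong strand would also be counted as antisense-only. An antisense probe was recognized by its identifier ending in _r.

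Germinated seeds of *P. ramosa* that received root exudates of oilseed rape, *B. napus*, for 12 h (exudate) were compared with germinated seeds left for 12 h in incubation medium (control). All seeds were wild type, were conditioned and germinated in the dark with the synthetic stimulant rac-GR24, and were 4 days old by the labels, so that both groups carry this treatment. Each group had 4 samples, which the labels describe as grown independently and the methods as 2 biological replicates in a dye-switch design, so that p-values may in part measure technical spread. The design text and the methods give crude exudates, and the treatment protocol in the labels diluted ones. The exudate sample and the control sample of the same number were hybridized together on 1 array, with exudate in Cy3 on arrays 1 and 2 and in Cy5 on arrays 3 and 4. Whole germinated seeds were sampled, so that fewer cells with a transcript and less transcript per cell cannot be told apart. The tissue label was checked on the sense probes of 6 contigs annotated as the seed storage cupins CRA1 and PAP85, of which 5 were well above background in all 8 channels and 1 in 7. The check is weak, as these 6 come from the paper's differentially expressed hormone genes. Sense signal in all 8 channels was also found for 22428 of all 52543 contigs.

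The precision of an array is set by its signal relative to the local background. Per channel, the median spot signal ranged from 130.5 to 241 and the median background from 49 to 157, with 36.2% to 62.5% of spots well above background. The exudate channel of array 3 stood apart as the dimmest, with 36.2% of the spots and 30.5% of the antisense probes well above background, against 35.6% to 48.8% of the antisense probes in the other 7 samples. Array 3 bears on the rule itself. Without it, 536 contigs would have met the rule, and without array 1, 2 or 4 there would have been 317, 314 or 330.

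Detection on 1 strand alone was much more frequent on the sense side. The mirror class, with the sense probe in all 8 channels and the antisense probe in none, held 3691 contigs (7.02%), or 16.5% of the 22428 contigs with sense signal in all 8 channels. The antisense-only contigs made up 2.09% of the 12977 contigs with antisense signal in all 8 channels and 3.12% of the 8676 contigs with no sense signal. Both strands were detected in all 8 channels for 10143 contigs (19.3%), and neither strand in any channel for 6043 (11.5%). Between these, 2563 contigs (4.88%) had antisense signal in all 8 channels and sense signal in 1 to 7.

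**Figure D1:**
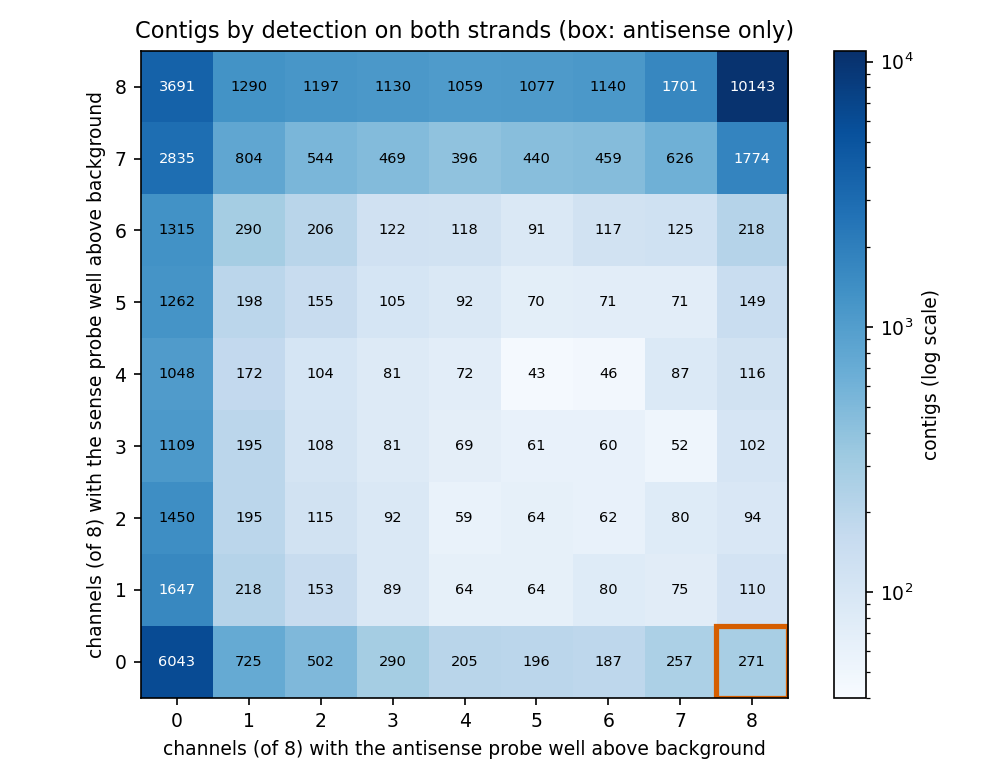
Number of contigs by the number of channels, of 8, in which the antisense probe (horizontal axis) and the sense probe (vertical axis) were well above background, with colour on a log scale. The boxed corner holds the 271 antisense-only contigs, against 3691 in the opposite corner with sense signal only and 10143 with both strands in all 8 channels.

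The contigs just outside the rule were of similar number. With no sense signal and antisense signal in 7 of the 8 channels there were 257 contigs, and for 225 of them (87.5%) the missing channel was that of exudate on array 3. Their antisense level had a median of 7.26 on the log2 scale, below the median of 8.0 of the antisense-only contigs, and their log2 ratios had a median of 0.03. With antisense signal in all 8 channels and sense signal in a single channel there were 110 contigs, with a median level of 8.12 and a median ratio of 0.16. In these, the single sense signal was found most often in control 4 (26 contigs) and exudate 2 (24 contigs), and never in exudate 3. The Cy3 channels held 17, 24, 18 and 26 of these signals (exudate 1 and 2, control 3 and 4). The Cy5 channels held 0, 11, 9 and 5 (exudate 3 and 4, control 1 and 2). Whether the dye or the brightness of a channel decided membership at the edge of the rule was not tested.

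The sense partners were dim, though in each of the 8 samples their median lay above that of the negative controls. Signal minus local background of their 542 sense spots had sample medians between 10 and 34, against 0 to 14 over the 600 negative control spots and 34 to 184 over all sense spots. The 383 antisense spots of the same contigs had sample medians between 84.5 and 291, against 23 to 67.5 over all antisense spots. A weaker flag of the scanner software, positive and significant, was set for the sense probe in no channel for 29 contigs, in 1 or 2 channels for 46, in 3 to 7 channels for 176 and in all 8 channels for 20. For most of the antisense-only contigs, the sense probe was thus below the limit for well above background but positive and significant in at least 1 channel. How often negative control spots carried this weaker flag was not counted, so that specific signal on the sense strand is not shown. The place on the array differed with membership. Of the sense spots of these contigs 39.1% lay in the upper rows of the array, against 50% of all sense spots, and for 95 of 271 contigs both sense spots lay in the lower rows, against 13223 of 52543 contigs. In all 8 samples a smaller share of sense spots was well above background in the lower rows than in the upper rows. How far the place of the sense spots decided membership was not tested.

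The number of antisense spots limits these values. Of the 271 probes, 159 were spotted 1 time and 112 (41.3%) were spotted 2 times, against 37.1% with 2 spots among the 12706 other contigs with antisense signal in all 8 channels. On arrays 1 to 4 the log2 ratios of both spots of a probe differed by a median of 0.17, 0.14, 0.19 and 0.15. None of the antisense spots of these contigs carried an outlier flag, and 2 contigs, the brightest ones, had a saturated antisense spot.

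Most antisense-only contigs were of low level, and a few were among the brightest on the array. The mean log2 level over the 8 samples had a median of 8.0, quartiles of 7.58 and 8.63, and a range of 7.05 to 15.78. It exceeded 9 in 46 contigs, 10 in 17 and 12 in 5. The sample medians were 8.12, 8.08, 8.16 and 7.93 in exudate and 7.92, 7.88, 7.79 and 8.08 in control, and their order between the groups was exchanged on array 4. Set among all contigs with antisense signal in all 8 channels, split into 4 classes of equal size by level, 98 (36.2%) fell in the lowest class, 80 (29.5%) and 66 (24.4%) in the next ones and 27 (9.96%) in the highest. No gene name for the bright ones was found in the sources used here, and so they are given by identifier.

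The brightest as measured was Pram_01031, with levels of 15.42, 15.78, 16.09 and 16.11 in exudate and 15.64, 16.05, 15.47 and 15.70 in control. Its spot was saturated in exudate 2 and 4 and in control 1, 2 and 4, so that these levels are lower bounds. The measured log2 ratio was 0.14 (standard error 0.22, limma adjusted p = 0.743), and only that of array 3, 0.62, was free of saturation. No difference or lack of one can be read from it. Pram_30729 had 14.78, 15.17, 15.94 and 15.66 in exudate and 15.61, 15.30, 15.26 and 15.45 in control, and a log2 ratio of -0.02 (standard error 0.26, limma adjusted p = 0.972). Its spot was saturated in control 1, and without array 1 the log2 ratio was 0.25 (limma adjusted p = 0.717). The order of these first contigs is therefore not settled. In Pram_40940 both samples of array 3 were the highest of their group, with 15.36 beside 14.49, 14.32 and 14.49 on arrays 1, 2 and 4 in exudate and 15.15 beside 14.42, 14.00 and 14.67 in control. Its log2 ratio was 0.10 (standard error 0.19, limma adjusted p = 0.785). Pram_43279 behaved likewise, with 12.57, 12.19, 13.36 and 12.16 in exudate and 12.46, 12.11, 12.94 and 12.49 in control, and a log2 ratio of 0.07 (standard error 0.20, limma adjusted p = 0.866). None of these 4 was called, and in each the measured levels of both groups overlapped. The signs of these 4 ratios depended on the normalization or on a single array. The fifth by level, Pram_50622, is described with its group below.

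At the dim end stood Pram_24734, with levels between 6.85 and 7.33 in exudate and between 6.78 and 7.43 in control, a log2 ratio of -0.02 and full overlap of the groups. Pram_00202 was the next, with 7.17, 7.20, 7.37 and 7.25 in exudate and 7.01, 6.99, 7.08 and 6.84 in control. Here every exudate level lay above every control level, with ratios of 0.16, 0.20, 0.29 and 0.41 on arrays 1 to 4. The mean of 0.27 (standard error 0.19, limma adjusted p = 0.391) equalled the median of all antisense probes tested and was not called. Pram_00202 was the only antisense-only contig among the 225 contigs in the part of the annotation table used here. Its terms were those of phosphoribosylformylglycinamidine synthase, an enzyme of *de novo* purine synthesis, with ATP binding, the chloroplast stroma, the mitochondrion and pollen development. Of the 79 contigs on the list of hormone genes that came with the study, 0 were antisense-only, against 0.516% of all contigs. The paper drew this list from its differentially expressed genes, so that it is not independent of these arrays and the 0 says little. All 79 had sense signal in at least 1 channel. Antisense signal was found in all 8 channels for 25, against 12977 of all 52543 contigs, and in none for 24.

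To ask which antisense-only contigs changed with exudates, the log2 ratio of exudate to control on the 4 arrays was tested with limma over the 17352 antisense probes that were well above background in every sample of exudate, of control or of both. Calls required a limma adjusted p below 0.05 together with a fold change that reached 1.5 upward or 0.75 downward. All 271 antisense-only contigs passed the filter. Of these, 6 (2.21%) were called higher in exudate and 0 lower, while 41 (15.1%) had an unadjusted limma p below 0.05, against 27.5% of all antisense probes tested. Among all antisense probes tested, 1119 (6.45%) were called higher and 20 (0.115%) lower. Among the 12977 with signal in all 8 channels, 956 (7.37%) were called higher and 14 (0.108%) lower. The share called higher was smaller than in either background. With no filter on dim probes it was not, with 1.11% against 0.999% of all 52543 antisense probes. In contigs with no sense signal and antisense signal in 7 channels the share was 0.778%, and with sense signal in 1 channel 4.55%. The count of antisense-only contigs called higher depended on single arrays and on the normalization. It was 2, 4, 3 and 13 (0.738%, 1.48%, 1.11% and 4.80%) without array 1, 2, 3 and 4, where 0.980%, 5.50%, 2.40% and 8.74% of all antisense probes tested were called higher. It was 0 when arrays were centred on their median instead of loess, where 0.853% of all antisense probes tested were called higher.

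The ratios of antisense probes as a class were not centred on 0. Over all 17352 the median log2 ratio was 0.27, against -0.13 over the 33913 sense probes tested. The normalization was fitted to both strands together. Fold changes of single contigs are to be read beside this shift. When the antisense spots had a loess of their own, the median of the class was -0.02, and 3 antisense-only contigs were called higher (1.11%, against 1.61% of all antisense probes tested) and 1 lower.

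The largest rise was that of Pram_43432. Its levels were 10.68, 9.80, 9.22 and 9.43 in exudate and 7.43, 7.33, 7.23 and 8.34 in control. All exudate samples lay above all control samples, and the ratio was smallest on array 4, with 1.09 beside 3.25, 2.48 and 1.98. The mean was 2.20 (standard error 0.32, limma adjusted p = 0.00773), a fold change of 4.59, and it rested on 2 spots per array. Pram_09192, with 1 spot, had 10.35, 9.83, 10.46 and 9.29 in exudate and 7.96, 8.29, 8.26 and 8.18 in control. The lowest exudate level lay about 1 above the highest control level, with a log2 ratio of 1.81 (standard error 0.25, limma adjusted p = 0.00618) and a fold change of 3.51. These were the 2 calls that remained without array 3, with log2 ratios of 2.27 and 1.68, and without array 1, with 1.85 and 1.62. Both also remained with the antisense loess, with 1.84 and 1.39.

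The other 4 rises were smaller. Pram_01115 had 9.58, 9.29, 9.68 and 9.19 in exudate and 7.86, 8.36, 8.26 and 8.28 in control, without overlap, and a log2 ratio of 1.25 (standard error 0.22, limma adjusted p = 0.0156). Pram_51089 had 9.13, 8.73, 10.10 and 8.21 in exudate and 7.71, 7.65, 8.06 and 7.85 in control, so that exudate 4 lay only just above the highest control. Its log2 ratio was 1.23 (standard error 0.27, limma adjusted p = 0.0356), and without the pairing of samples by array it was not called (limma adjusted p = 0.0973). Pram_17620 was the only bright contig among the 6, with 12.37, 12.43, 12.39 and 12.00 in exudate and 11.22, 11.38, 10.59 and 11.31 in control. The groups did not overlap and the log2 ratio was 1.17 (standard error 0.23, limma adjusted p = 0.0230). Pram_29043 was the dimmest of the 6, with 8.77, 8.06, 8.22 and 7.81 in exudate and 7.17, 7.08, 6.85 and 7.38 in control, and its log2 ratio was 1.09 (standard error 0.24, limma adjusted p = 0.0327). In 5 of the 6, all but Pram_43432, the smallest exudate level was that of array 4. With the antisense loess, the log2 ratios of these 4 were 0.85, 0.84, 0.79 and 0.85, of which that of Pram_17620 remained called, with a limma adjusted p of 0.0430. Without array 3, none of these 4 was called, with limma adjusted p between 0.0513 and 0.0919. The same held without array 1, with limma adjusted p between 0.125 and 0.224.

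**Figure D2:**
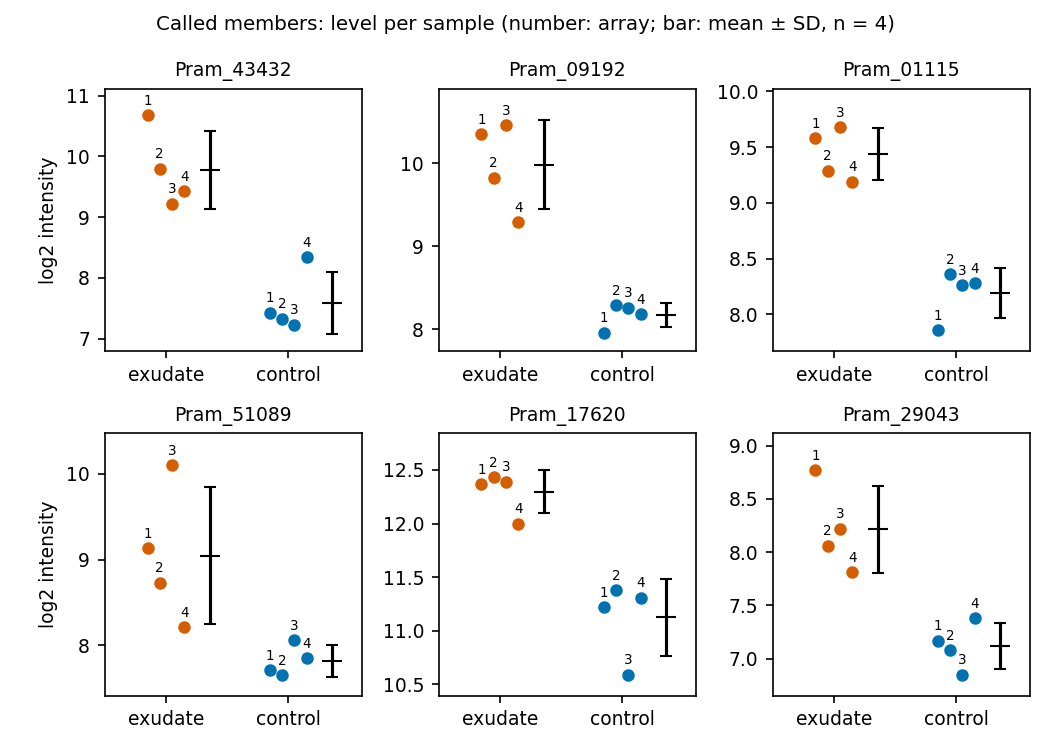
Log2 level of the antisense probe in each sample for the 6 antisense-only contigs called higher, exudate on the left and control on the right of each panel. Points are samples marked with their array, and bars give the mean and SD of 4. Exudate and control do not overlap in any panel, and in Pram_51089 exudate 4 (8.21) comes nearest to the controls (8.06).

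Just outside the threshold stood 4 contigs that were higher on all 4 arrays, chosen here after their values were seen. Pram_36443 had ratios of 1.10, 0.63, 1.05 and 0.45, which averaged 0.81 (limma adjusted p = 0.0510). Pram_31699, Pram_46518 and Pram_49444 had mean log2 ratios of 0.78, 0.77 and 0.78, with limma adjusted p of 0.0546, 0.0554 and 0.0617. On fold alone, 27 antisense-only contigs were past the upper limit, 14 past the lower and 230 between them. These counts were not made over all antisense probes tested, whose median log2 ratio was 0.27, and they are not read as a response.

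**Figure D3:**
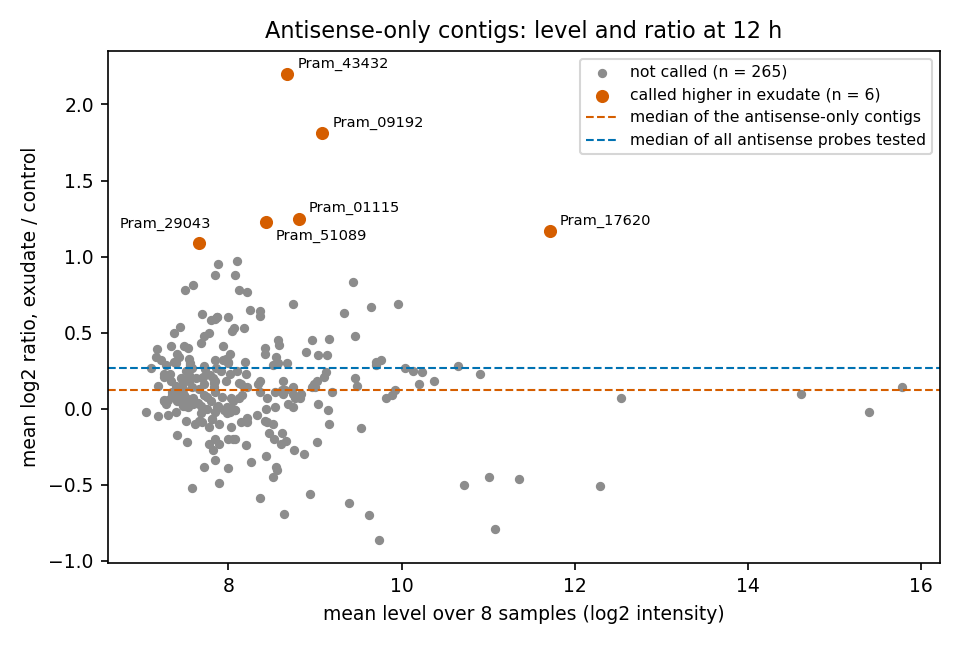
Mean log2 ratio of exudate to control against mean log2 level over the 8 samples, 1 point per antisense-only contig. The 6 called contigs lie above 1, the other 265 between -0.86 and 0.97, and the dashed lines give the medians of the antisense-only contigs (0.12) and of all antisense probes tested (0.27).

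As a whole, the antisense-only contigs had lower ratios than the other antisense probes with signal in all 8 channels. Their median log2 ratio was 0.12 (quartiles -0.01 and 0.30), with 199 (73.4%) above 0, against a median of 0.32 and 84.8% above 0 in the 12706 other contigs with antisense signal in all 8 channels. Taken by array, the medians were 0.11, 0.14, 0.42 and -0.10 on arrays 1 to 4, against 0.38, 0.31, 0.67 and -0.06. They were lower on each array, by as much as 0.26 on array 1 and by 0.04 on array 4. Without array 3 the median of the antisense-only contigs was 0.03, against 0.16 over all antisense probes tested. With the antisense loess it was -0.16, against -0.02, and with median centring -0.11, against 0.04, so that the sign of the median depended on the normalization. Its place below the class depended on the filter, as the median over all 52543 antisense probes, most of them dim, was 0.09. Low ratios were not particular to the antisense-only contigs. Contigs with no sense signal and antisense signal in 7 channels had a median of 0.03, with 59.5% above 0. Those with sense signal in 1 channel had a median of 0.16, with 70.9% above 0.

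**Figure D4:**
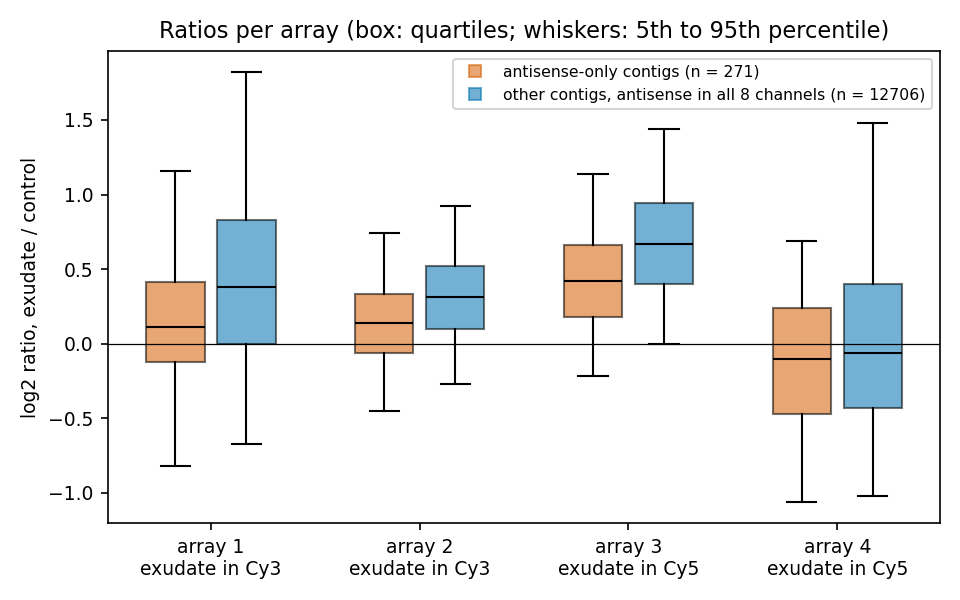
Log2 ratio of exudate to control on each array for the 271 antisense-only contigs and the 12706 other contigs with antisense signal in all 8 channels, with the dye of the exudate sample under each array. Boxes give quartiles and medians and whiskers the 5th and 95th percentiles, and the medians of the antisense-only contigs (0.11, 0.14, 0.42 and -0.10) lie below those of the others on each array.

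This gap was present at each level. In the 4 level classes from the lowest to the highest, the median log2 ratios of the antisense-only contigs were 0.11, 0.14, 0.12 and 0.14, against 0.27, 0.33, 0.39 and 0.32 in the other contigs. The shares called higher in these classes were 1.02%, 0%, 6.06% and 3.70%, against 2.48%, 6.26%, 10.3% and 10.8%. By spots, 5 of 159 contigs with 1 spot (3.14%) and 1 of 112 with 2 spots (0.893%) were called higher, against 7.61% and 7.25% of the others. Grouped by the number of channels with sense signal, the median antisense ratio was 0.12 with none, lay between 0.15 and 0.23 with 1 to 7 channels and was 0.36 with all 8. The shares called higher did not follow that order, with 2.21% at none, 10.8% at 3 channels, 3.33% at 7 and 8.22% at 8.

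The antisense-only contigs also spread less between arrays, with a median SD of the log2 ratio of 0.35, against 0.48 in the other contigs. The classes nearest to them had similar or smaller values, with 0.21 for antisense signal in 7 channels and no sense signal, 0.39 for sense signal in 1 channel and 0.40 for sense signal in 1 to 7. Between pairs of arrays, their ratios correlated with r between 0.10, for arrays 3 and 4, and 0.66, for arrays 1 and 2, over 271 contigs that share the arrays and are not independent replicates. All 4 arrays gave a higher value in exudate in 62 contigs (22.9%) and a lower value in 11 (4.06%). These shares were 30.9% and 2.17% over all antisense probes tested. They were 13.6% and 7.39% for antisense signal in 7 channels and no sense signal. The 4 exudate levels all lay above the 4 control levels in 28 antisense-only contigs (10.3%) and all below them in 3 (1.11%). This held for 16.6% and 0.231% of the 12970 antisense probes in all 8 channels with a value in each sample. The 3 that were lower, named after their values were seen, were Pram_16709, Pram_26934 and Pram_47452, with log2 ratios of -0.59, -0.38 and -0.30 (limma adjusted p of 0.102, 0.227 and 0.355).

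No antisense-only contig was called lower, with or without array 3. The contigs with the lowest ratios, described after their values were seen, had 1 feature in common, a low level in both samples of array 3. Pram_37422, with the lowest ratio, had levels of 9.52, 10.17, 8.46 and 9.11 in exudate and 11.30, 10.86, 8.18 and 10.34 in control. It was lower in exudate on arrays 1, 2 and 4 and higher on array 3, with a mean log2 ratio of -0.86 (standard error 0.31, limma adjusted p = 0.120). Pram_13081 had 10.99, 11.42, 9.69 and 10.61 in exudate and 12.66, 12.02, 9.53 and 11.69 in control, and a mean log2 ratio of -0.79 (standard error 0.29, limma adjusted p = 0.118). Pram_13220, Pram_16905 and Pram_08411 followed with -0.70, -0.69 and -0.62, and limma adjusted p of 0.152, 0.172 and 0.158. In each of these 5 the ratios were below 0 on arrays 1, 2 and 4 and above 0 on array 3.

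The fifth-brightest contig, Pram_50622, ran the same way, with 12.18, 12.49, 11.34 and 12.13 in exudate and 13.37, 12.95, 10.91 and 12.93 in control, and a log2 ratio of -0.51 (standard error 0.27, limma adjusted p = 0.263). Over the 8 samples, the levels of 10 of the 270 other antisense-only contigs (3.70%) correlated with those of Pram_13081 with r above 0.9, as did 0.787% of the other antisense probes in all 8 channels and 0.638% of the 22428 sense probes in all 8. These 10 were Pram_08411, Pram_37422, Pram_50622, Pram_08982, Pram_16905, Pram_13220, Pram_38143, Pram_50966, Pram_21803 and Pram_08308, with mean levels from 8.0 to 12.29 and log2 ratios from -0.86 to -0.39. The 8 samples share 4 arrays, so that this is a likeness of profiles and no test. The probe sequences are not used here, and whether these probes share sequence was not tested.

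More contigs than these stood apart on array 3. Both samples of array 3 lay below the other 6 samples in 28 antisense-only contigs (10.3%), against 2.28% of the other contigs with antisense signal in all 8 channels and 21.7% of the sense probes with signal in all 8. Both lay above the other 6 in 28 (10.3%), against 31.9% and 8.14%. By this measure the antisense-only contigs stood between the other antisense probes and the sense probes on array 3. This did not hold on each array, as both samples of array 1 lay above the other 6 in 4.8%, against 1.37% and 1.46%. A gap of over 1 on the log2 scale on array 3, below the other 6 samples, was found in 1.48%, against 0.205% of the other antisense contigs. These were Pram_08411, Pram_16905, Pram_18061 and Pram_08982. Of these, Pram_18061 did not share the lower exudate levels. It had 9.90, 9.97, 7.97 and 9.41 in exudate and 9.67, 9.55, 7.63 and 9.00 in control, with ratios of 0.24, 0.42, 0.34 and 0.41 and a mean of 0.35 (standard error 0.19, limma adjusted p = 0.256).

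**Figure D5:**
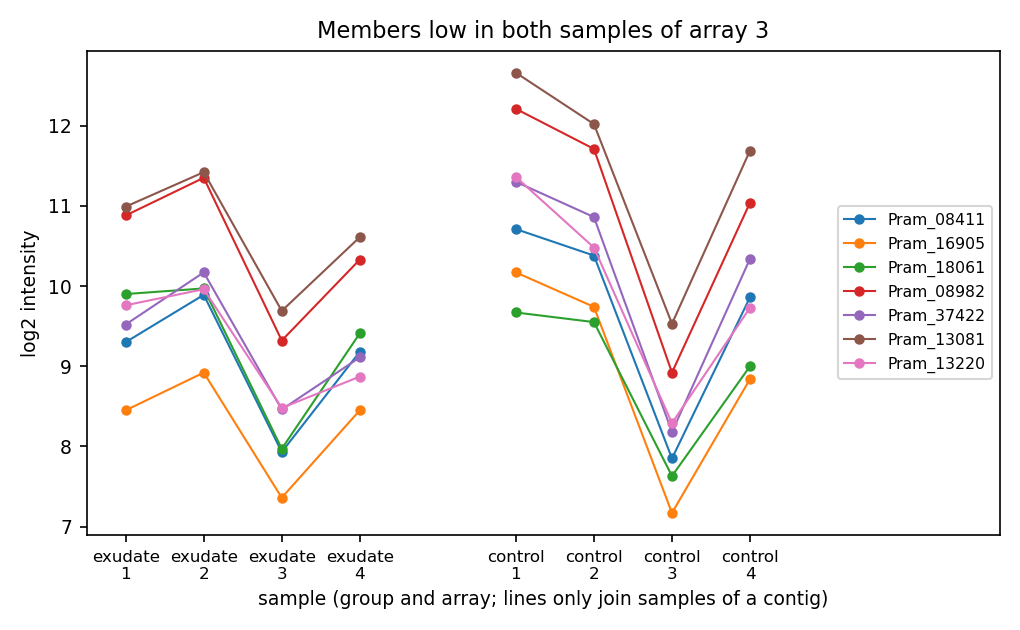
Log2 level in each sample of 7 antisense-only contigs that were low in both samples of array 3, the 4 exudate samples on the left and the 4 control samples on the right. Lines join the samples of a contig. All 7 are lowest on array 3 in both groups, and in all but Pram_18061 the control levels of arrays 1, 2 and 4 lie above the exudate levels of the same arrays.

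Some lower ratios did not have this form. Pram_16709 had levels of 7.81, 8.19, 8.22 and 8.07 in exudate and 8.34, 8.44, 8.92 and 8.94 in control. Pram_26645 had 8.40, 8.47, 9.32 and 8.42 in exudate and 8.87, 9.20, 9.69 and 9.11 in control. Both were lower on all 4 arrays, and in Pram_26645 the groups overlapped through exudate 3. Their log2 ratios were -0.59 and -0.56 (limma adjusted p of 0.102 and 0.101). With the antisense loess, Pram_26645 was called lower, with -0.97 (limma adjusted p = 0.0324). Pram_41287 was also lower on all 4 arrays, with a log2 ratio of -0.52 (limma adjusted p = 0.153).

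The contigs with the widest spread owed it to single arrays. Pram_49651 had ratios of 0.23, 0.26, 0.93 and -1.46 on arrays 1 to 4, an SD of 1.02, with control 4 (9.89) above the other controls (8.85, 8.97 and 8.89) and exudate 4 (8.43) below the other exudate samples (9.08, 9.23 and 9.82). Its mean was -0.01 (limma adjusted p = 0.988), and 0.47 without array 4. Pram_33052 had ratios of -1.25, -0.40, 1.06 and -0.49, an SD of 0.96, with exudate levels of 7.24, 8.46, 10.08 and 8.71 and control levels of 8.49, 8.86, 9.02 and 9.20. For both, the spread between arrays was larger than any difference between the groups.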

How the data were processed

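RNA of 4 exudate and 4 control samples was measured on 4 dye-switched 2-colour arrays. The authors deposited the scanner output (Feature Extraction 11.5.1.1), with median intensity, local background and detection flags of each spot and channel on a linear scale, not normalized between channels. The deposited table of processed log2 values held sense probes and was not used. There were 0 unused columns of values per sample. Each sample's own channel was read.

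With R 4.3.3 and limma 3.58.1 (the labels name limma too), intensities were corrected by normexp (offset 50), which draws dim ratios toward 0, and loess was fitted within arrays (span 0.3, 4 iterations) with control spots unweighted. Outlier spots were left out, saturated spots kept, and spots of a probe averaged. Log2 ratios of 17352 antisense probes were tested with lmFit and eBayes, with Benjamini-Hochberg adjustment over these probes. Levels are single-channel log2 values after Aquantile normalization. The fold limits are those of the paper's results text, while a figure caption there gives them on the log2 scale. The p limit was set here. The steps were tested on simulated data.

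The log2 ratio pairs both samples of an array. Over antisense probes, deviations from the group means of both samples had r of 0.48, 0.17, 0.75 and -0.32 on arrays 1 to 4. The highest r with a sample of another array was 0.47, 0.21, 0.3 and 0.63, above that of the partner on arrays 2 and 4. The pairing comes from the shared hybridization, not from these values. Members, lists and alternatives were chosen with earlier results of these data known. Named are the called contigs, the 5 brightest, the 2 dimmest, the 2 with the largest SD, and those with a hormone or ontology annotation. Alternatives changed normalization, background, filter, pairing, dye, adjustment, thresholds, rule and arrays. The 24 h arrays are not analysed here.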

Additional observations from a re-analysis of the deposited data

Results flagged for a closer look

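Among 81 groups of 4 values examined, 5 held a sample that stood far from the other 3 by the gap over the range of its group. Chance marks about 5% of such groups. Exudate 4 of Pram_17620, at a log2 level of 12.00, lay below the other exudate samples (12.37, 12.43 and 12.39) and still above all controls. Exudate 3 of Pram_40940 lay above the others of its group, at 15.36, and so did exudate 3 of Pram_26645, at 9.32. Control 4 of Pram_49651, at 9.89, lay above the other controls, exudate 4 was the lowest exudate sample, at 8.43, and the ratio on array 4 was -1.46. The share of saturated spots in control 3, 0.0767%, was below that of the other controls (0.231% to 0.26%), and exudate 3 on the same array had the lowest share of all samples, 0.0409%. In 3 of these 5 the sample was on array 3, the array with the dimmest exudate channel.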

How the results depend on the processing

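The 6 antisense-only contigs called higher became 3 with loess on antisense spots, 0 with median centring, 12 with the processed signals of the scanner software, 3 with a dye covariate, 22 with arrays 1 and 3 and arrays 2 and 4 averaged, 3 without a filter, 13 with a filter on both channels, 11 with adjustment over both strands, 26 at an unadjusted p, 2 at an adjusted p below 0.01, 1 of 112 contigs with 2 antisense spots, and 0 of 29 contigs whose sense probe was nowhere positive and significant. The shares over all antisense probes moved too. They were 19.3% with arrays 1 and 3 and arrays 2 and 4 averaged (antisense-only 8.12%), 0.999% without a filter (1.11%), 12.3% with a filter on both channels (4.80%), 11.1% with processed signals (4.43%) and 20.5% at an unadjusted p (9.59%). With a dye covariate they were 2.59% (1.11%), with adjustment over both strands 11.1% (4.06%), and at an adjusted p below 0.01 they were 1.19% (0.738%). Those called lower were 1 with loess on antisense spots (Pram_26645), 1 with processed signals (Pram_41287), 5 with arrays 1 and 3 and arrays 2 and 4 averaged, 9 at an unadjusted p, and 0 otherwise. In these settings with calls, 72, 90, 192 and 215 of all 17352 antisense probes tested were called lower, in the same order. Averaging arrays left 2 values per probe. With arrays 1 and 4 and arrays 2 and 3 averaged instead, the same 6 were called higher (2.21%, against 6% of all antisense probes tested). Leaving out 1 array gave 2 to 13 higher, 0 lower, medians of 0.03 to 0.22, and 314 to 536 contigs under the rule. Without the replicate block, 6 were higher, of which 5 were the same contigs, and 0 lower. Of the contigs named, leaving out the pairing lost the call of Pram_51089 and called Pram_36443 (limma adjusted p = 0.0481).

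The median log2 ratio was -0.16 with loess on antisense spots, -0.11 with median centring and between 0.07 and 0.14 in the other settings with all arrays. Pram_43432 and Pram_09192 were called in 16 of the 17 alternatives that kept the thresholds, Pram_01115 in 13, Pram_17620 in 12, Pram_29043 in 9 and Pram_51089 in 8. Those that changed only the filter, adjustment, pairing or dye term left the ratios themselves unchanged, so that the 17 are not independent. They include the filter on all spots described below. With loess on antisense spots Pram_40940 had -0.09 and Pram_43279 -0.25. With median centring Pram_01031 had -0.01, Pram_40940 -0.10 and Pram_43279 -0.26. Pram_30729 had 0.02 without background correction. Leaving out 1 array in turn gave -0.25 to 0.25 for Pram_30729, -0.03 to 0.27 for Pram_01031, -0.05 to 0.20 for Pram_43279, -0.13 to 0.17 for Pram_24734, -0.32 to 0.47 for Pram_49651 and -0.71 to 0.06 for Pram_33052. The causes were not tested. A filter on all spots, added after the data were seen, gave 7 higher among 268 tested. Precision was limited by 4 arrays, by single spots for 159 contigs and by signals near background for most sense partners.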
